A study of Mus musculus with 7 samples.

Results

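The 38 genes described here encode the enzymes of glycolysis and gluconeogenesis, glucose transporters, the kinases that hold back pyruvate dehydrogenase, and carriers of lactate and pyruvate. They were chosen by symbol from what is known of these pathways, with the difference between TG and CTR papillomas already known, and all 38 were found among the 23284 gene symbols of the deposited files. *Pfkm*, *Pgam2*, *Eno3* and *Fbp2*, whose products are the isozymes of skeletal muscle, were set apart from the other 34 genes. RNA-seq had been performed on papillomas from 4 CTR and 3 TG mice, each from a separate mouse, to find how the transcription factor NANOG changes skin tumors. TG mice carried *K5-rtTA*, in which the bovine keratin 5 promoter drives the reverse tetracycline transactivator in basal keratinocytes, together with the doxycycline-responsive *tetO-Nanog* allele. CTR mice carried *tetO-Nanog* without the transactivator. Both groups were littermates on a C57Bl/6 background, age-matched young adults at the start, and drank doxycycline (2 mg/ml) while their back skin received the mutagen DMBA once and then the tumor promoter TPA repeatedly. Papillomas were collected when the protocol ended, or earlier where tumor size required it.

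In glycolysis, glucose enters the cell through transporters of the SLC2 family, is phosphorylated by hexokinase, and is committed to the pathway by phosphofructokinase. The lower steps yield pyruvate, which lactate dehydrogenase reduces to lactate for export or which pyruvate dehydrogenase passes on to the mitochondria. Keratinocytes and squamous tumors are known for high glycolysis, and several of the enzymes exist as isozymes that differ between epithelium, muscle, brain and liver.

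*Nanog*, the gene driven by the transgene, was at 36.9, 57.4 and 66.9 FPKM (fragments scaled to transcript length and to the mapped fragments of the library) in the TG papillomas 1 to 3, against 2.70, 2.84, 12.7 and 3.34 FPKM in CTR 1 to CTR 4. The 10 keratinocyte markers summed to between 22601 and 26234 FPKM in CTR and to 37195, 29419 and 17270 FPKM in TG papillomas, so keratinocyte RNA was abundant in each of them. TG 3 stood apart. Its correlations with the other papillomas across tested genes were 0.903 to 0.937, against 0.945 to 0.977 among the other 6. The 14 skeletal muscle markers summed to 849 FPKM in TG 3 and to between 9.10 and 14.1 FPKM elsewhere, and all 14 were highest in TG 3. Outside TG 3 the largest part of that sum was *Tnni2*, at 4.30 to 10.8 FPKM. Several low markers were higher in TG 2 than in any CTR papilloma, such as *Acta1* (1.41 against at most 0.409 FPKM) and *Ckm* (0.486 against at most 0.258 FPKM). *Tnni2*, *Mylpf*, *Myh1* and *Mb* were not. All 8 fibroblast markers were also highest in TG 3, with a sum of 694 FPKM against 76.0 to 132 FPKM in the other papillomas. The 9 neutrophil and macrophage markers summed to 118 FPKM in TG 3 against 31.3 to 39.8 FPKM elsewhere, with 7 of the 9 highest in TG 3. Of the adipocyte markers, *Adipoq*, *Plin1*, *Cidec*, *Lep* and *Retn* were listed at 0 in all 4 CTR papillomas, and 8 of 10 were highest in TG 3. The summed level of 1747 FPKM lay within the CTR range of 1386 to 3263 FPKM. That sum is mostly *Fabp4*, which was at 1680 FPKM in TG 3 and at 1374 to 3228 FPKM in CTR papillomas. The 7 endothelial markers summed to 26.4 FPKM in TG 1 and 32.9 FPKM in TG 3 against 9.93 to 16.6 FPKM in the other papillomas, with 4 of the 7 highest in TG 3. The 6 erythroid markers summed to 34.8 FPKM in TG 1 and to at most 11.3 FPKM elsewhere. The 6 nerve and Schwann cell markers summed to 13.4 FPKM in TG 3 and to between 5.52 and 7.51 FPKM elsewhere, with 5 of the 6 highest in TG 3. The widths of the authors' confidence intervals imply 10074859 to 15710562 reads per library, with CTR 3 and TG 1 the deepest. In bulk tissue, fewer cells of a type and less RNA per cell cannot be told apart.

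The promoters of the 3 tested genes whose TG and CTR values did not overlap are shown first, as RefSeq gives them on GRCm38.p6, from 250 bases before to 50 bases after the start site. Capitals mark 5 motifs searched on both strands. They were ACGTG and GCGTG, the forms of the core that hypoxia-inducible factors bind, TGANTCA (AP-1), TAATGG (a core bound by NANOG) and GGGCGG (GC box). Matches could overlap, as GCGTG and GGGCGG did in *Pfkp* and as the palindrome CACGTG, which counts as 2 matches of ACGTG, did with TGANTCA in *Fbp2*.
*Slc5a8*, chr10:88885742-88886041, plus strand: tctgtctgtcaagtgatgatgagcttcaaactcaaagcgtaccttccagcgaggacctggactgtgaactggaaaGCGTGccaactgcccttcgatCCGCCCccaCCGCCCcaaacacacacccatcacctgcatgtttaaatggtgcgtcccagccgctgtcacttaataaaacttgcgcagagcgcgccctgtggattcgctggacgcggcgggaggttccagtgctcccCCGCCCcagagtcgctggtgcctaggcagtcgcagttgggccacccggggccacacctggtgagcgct
*Pfkp*, chr13:6648722-6649021, minus strand: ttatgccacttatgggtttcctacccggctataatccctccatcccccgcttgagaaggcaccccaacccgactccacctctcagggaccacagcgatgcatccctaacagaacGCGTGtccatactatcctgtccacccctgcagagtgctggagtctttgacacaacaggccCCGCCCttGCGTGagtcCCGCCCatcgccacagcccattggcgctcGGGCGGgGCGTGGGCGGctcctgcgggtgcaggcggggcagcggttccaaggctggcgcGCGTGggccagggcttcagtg
*Fbp2*, chr13:62858351-62858650, minus strand: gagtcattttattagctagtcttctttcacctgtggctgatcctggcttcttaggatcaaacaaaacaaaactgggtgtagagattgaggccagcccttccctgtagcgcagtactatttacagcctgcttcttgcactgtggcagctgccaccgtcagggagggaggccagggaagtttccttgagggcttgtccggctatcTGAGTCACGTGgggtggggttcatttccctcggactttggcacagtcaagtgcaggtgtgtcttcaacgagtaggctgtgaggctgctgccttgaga
*Slc5a8* had 1 GCGTG at -175 and 3 GC boxes at -154, -145 and -18 from the start site. *Pfkp* held 4 GCGTG and 4 GC boxes. *Fbp2* held no GC box, and its TGANTCA at -47 was the only one among the 37 members with a promoter in the table. *Slc2a3* had none in the table. Each of the 37 was given 1 promoter, at the start site nearest to the deposited start of the gene. All 32851 promoters include several start sites of some genes, so the shares are over unlike units. ACGTG was in 15 of the 37 promoters (40.5%) and in 19.6% of all 32851 promoters, and GCGTG was in 18 (48.6%) against 32.4%. GGGCGG was in 21 (56.8%) against 35.7%, TGANTCA in 1 (2.70%) against 7.81%, and TAATGG in 0 against 7.73%. The median GC content was 57.3% in the members' promoters and 52.7% in all, and its part in these shares was not tested. These are matches of letters and not measured sites.

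Together the 38 genes made up between 3083 and 3851 FPKM, or 0.849% to 1.10% of the FPKM of all genes in a papilloma. Levels spanned over 4 orders of magnitude. *Gapdh* stood highest with a mean of 1067 FPKM over the 7 papillomas, followed by *Ldha* with 731 FPKM and *Aldoa* with 498 FPKM, while *Pklr*, the liver and red cell pyruvate kinase, was listed at 0 in all 7. With a mean of at least 0.5 FPKM, 33 genes were tested with limma, and *Hk3*, *Eno2*, *Pklr*, *Fbp1* and *Pck1* fell below it. Some levels are uncertain because stretches of the transcript as long as a read (40 bases) also occur in transcripts of other genes. Such stretches made up 83.3% of *Gapdh*, 74.8% of *Eno1*, 68.1% of *Pgk1*, 41.8% of *Pgam1*, 34.3% of *Ldhb*, 25.5% of *Gpi1*, 25.5% of *Pfkfb2*, 25.2% of *Ldha*, 22.1% of *Aldoa* and 11.9% of *Tpi1*. The 4 muscle isozymes, *Slc5a8* and *Pfkp* had none.

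**Figure D1:**
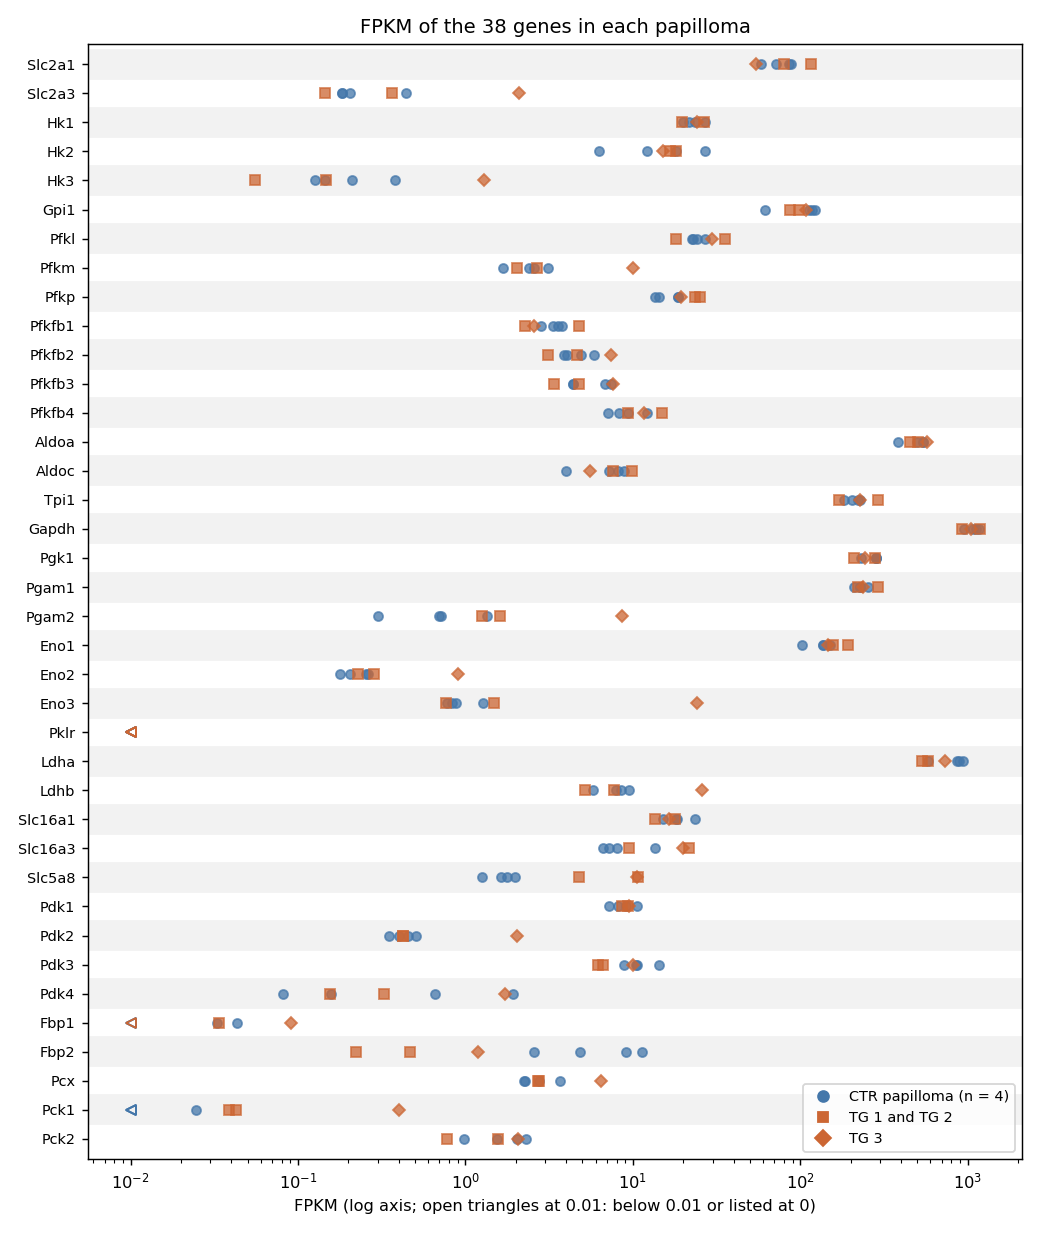
FPKM of each of the 38 genes (rows) on a logarithmic axis, with 1 symbol per papilloma (blue circles CTR, orange squares TG 1 and TG 2, orange diamonds TG 3). *Gapdh*, *Ldha* and *Aldoa* sit farthest to the right, *Slc5a8* and *Fbp2* show CTR and TG apart, and TG 3 lies to the right of the other papillomas for *Pfkm*, *Pgam2* and *Eno3*.

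The differences between TG and CTR papillomas are given as a description, since the list was drawn up with this contrast known. Limma was used with Benjamini-Hochberg adjustment over all 12299 tested genes. At an adjusted p of 0.05, 0 of the 33 genes passed as higher (0% of all tested genes) and 0 as lower (0%). *Nanog* did not pass either. The lowest adjusted p of the 33 genes from limma was 0.400, for *Slc5a8*. At an unadjusted p of 0.05, *Pfkp*, *Pgam2*, *Slc16a3* and *Slc5a8* were higher, 4 of 33 against 4.86% of all tested genes, and *Pdk3* and *Fbp2* were lower, 2 of 33 against 1.96%. With limma's sample quality weights, *Slc5a8* (higher) and *Fbp2* (lower) passed the adjusted threshold, as did 49 higher and 36 lower genes in all. Every TG papilloma exceeded every CTR papilloma for *Slc5a8* and *Pfkp*, 2 of 33 against 4.93% of all tested genes, and every TG papilloma was below every CTR papilloma for *Fbp2*, 1 of 33 against 2.23%. Nothing is read from these shares.

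Over the 33 genes the median difference was 0.11 on the log2 scale, against 0.06 for all tested genes, and without TG 3 it was -0.0026 against -0.03. For 25 of the 33 genes (75.8%) the difference lay within 0.5 on the log2 scale, as it did for 86.2% of all tested genes. The other 8 included all 4 muscle isozymes, of which *Pfkm*, *Pgam2* and *Eno3* were higher and *Fbp2* was lower in TG papillomas. TG 3 had the highest value for 10 of the 33 genes (30.3%), against 41.1% of all tested genes. Of these 10, *Slc2a3* and *Pdk2* reached the mean of 0.5 FPKM only through TG 3. All differences are of log2(FPKM + 0.5), which understates changes at low FPKM.

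**Figure D2:**
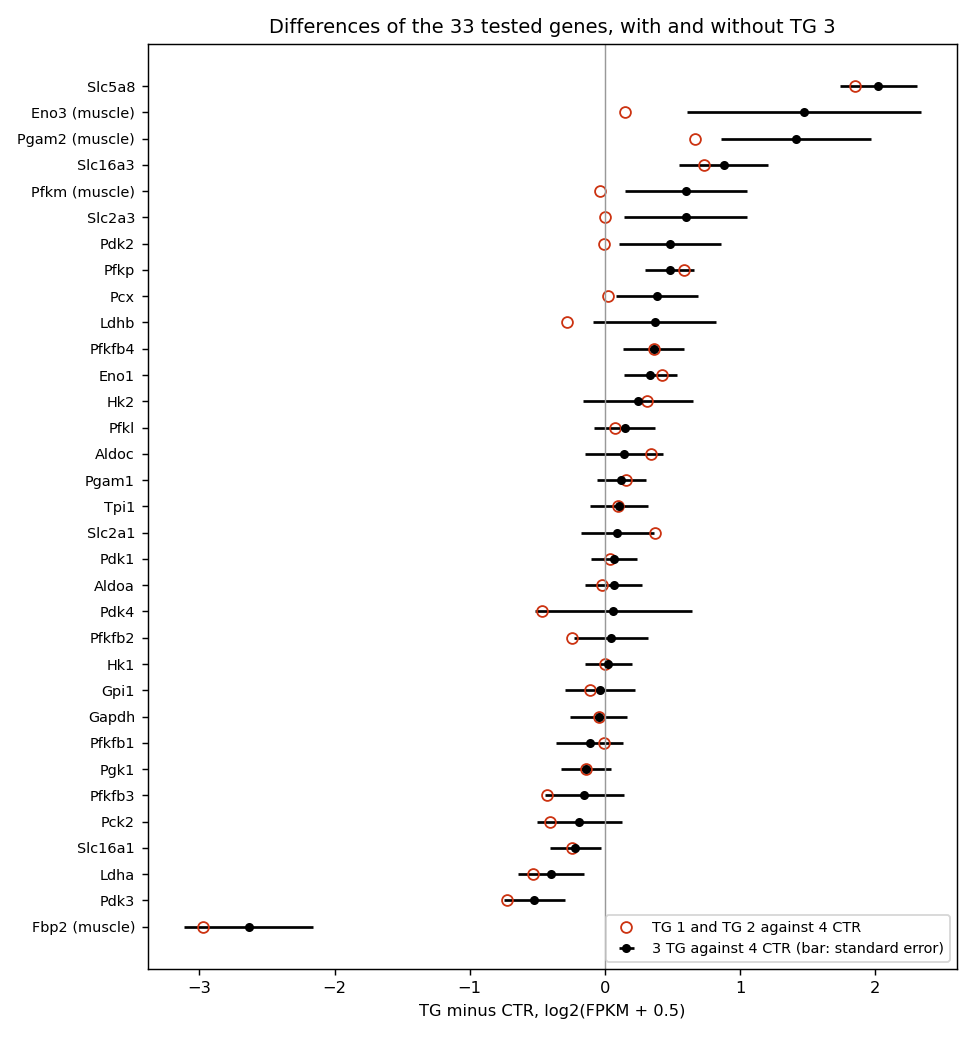
TG minus CTR difference of log2(FPKM + 0.5) for each of the 33 tested genes, ordered by size, with all 7 papillomas (black points with standard errors) and without TG 3 (open red circles). *Slc5a8* and *Fbp2* lie at 2.02 and -2.63 and move little without TG 3, whereas *Eno3* goes from 1.47 to 0.15.

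Among glucose transporters, *Slc2a1*, which encodes the basal transporter GLUT1, was at 88.0, 58.5, 71.5 and 85.3 FPKM in CTR and 116, 80.4 and 54.1 FPKM in TG papillomas. The highest and the lowest value were both in TG papillomas (TG 1 and TG 3), and the groups overlapped with a log2 difference of 0.09 (SE 0.27). *Slc2a3*, the high-affinity transporter of neurons and leukocytes, was at most 0.445 FPKM outside TG 3 and 2.09 FPKM in TG 3. The summed neutrophil and macrophage markers and the summed nerve and Schwann cell markers were also highest in TG 3, and their part in *Slc2a3* was not tested.

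Of the hexokinases, which trap glucose as glucose 6-phosphate, *Hk1* was at 27.0, 19.9, 23.4 and 21.7 FPKM in CTR and 26.6, 19.6 and 24.2 FPKM in TG papillomas. The groups covered almost the same range. *Hk2*, the inducible form, ranged from 6.25 FPKM in CTR 2 to 27.0 FPKM in CTR 1, with TG papillomas between 15.2 and 18.2 FPKM. *Hk3*, the hexokinase of myeloid cells, reached 1.29 FPKM in TG 3 and at most 0.382 FPKM elsewhere. *Gpi1*, which converts glucose 6-phosphate to fructose 6-phosphate, was at 118, 61.6, 123 and 114 FPKM in CTR and 87.2, 98.6 and 108 FPKM in TG papillomas. CTR 2 alone lay below the TG range.

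Phosphofructokinase-1 catalyses the committed step and is built from liver (*Pfkl*), muscle (*Pfkm*) and platelet (*Pfkp*) subunits. *Pfkl* was at 24.3, 22.4, 22.8 and 26.9 FPKM in CTR and 35.3, 18.2 and 29.6 FPKM in TG papillomas, which lay on both sides of the CTR range. *Pfkp* was at 18.7, 14.4, 13.5 and 18.8 FPKM in CTR and 25.3, 23.6 and 19.5 FPKM in TG papillomas, with means of 16.3 ± 2.8 (SD, n = 4) and 22.8 ± 3.0 (SD, n = 3). The groups did not overlap, but TG 3 stood only slightly above CTR 4. The log2 difference of *Pfkp* was 0.48 (SE 0.18), and after upper-quartile scaling or quantile normalization the groups overlapped. In TG 2, *Pfkp* made up 53.1% of the FPKM of the 3 subunits, against at most 41.8% in the other papillomas.

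The bifunctional PFKFB enzymes make and remove fructose 2,6-bisphosphate, an activator of phosphofructokinase-1. *Pfkfb4* was the highest of the 4, at 9.42, 7.11, 12.2 and 8.24 FPKM in CTR and 9.38, 14.9 and 11.7 FPKM in TG papillomas. TG 2 had the highest value and the groups overlapped. *Pfkfb1*, *Pfkfb2* and *Pfkfb3* lay between 2.28 and 7.59 FPKM, with differences between -0.15 and 0.04 on the log2 scale.

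Several enzymes of the middle of the pathway varied little between papillomas. *Gapdh*, the glyceraldehyde 3-phosphate dehydrogenase that served as the reference gene of the study's qRT-PCR, was at 957, 1078, 1168 and 1118 FPKM in CTR and 1185, 920 and 1044 FPKM in TG papillomas. Its coefficient of variation over the 7 papillomas was 9.46%, and its log2 difference was -0.05 (SE 0.21). *Aldoa*, the aldolase that splits fructose 1,6-bisphosphate, was at 499, 383, 541 and 538 FPKM in CTR and 455, 504 and 570 FPKM in TG papillomas. The groups overlapped for both genes. *Aldoc*, the brain aldolase, was between 3.97 and 9.89 FPKM. *Tpi1*, which interconverts the triose phosphates, was between 170 and 290 FPKM, and *Pgk1*, the first step that yields ATP, between 210 and 285 FPKM.

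Phosphoglycerate mutase and enolase lead from 3-phosphoglycerate to phosphoenolpyruvate. *Pgam1* was at 226, 226, 210 and 255 FPKM in CTR and 293, 222 and 237 FPKM in TG papillomas, and the groups overlapped. *Eno1* was at 137, 102, 137 and 151 FPKM in CTR and 194, 158 and 146 FPKM in TG papillomas. TG 3 fell below CTR 4, and the log2 difference of *Eno1* was 0.33 (SE 0.20). *Eno2*, the neuronal enolase, was at most 0.283 FPKM outside TG 3, where it was 0.899 FPKM. The summed nerve and Schwann cell markers were also highest in TG 3, and their part in *Eno2* was not tested. For pyruvate kinase, *Pkm*, named here after its values were seen because *Pklr* was listed at 0, was between 511 and 740 FPKM under the symbol *Pkm2*.

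The muscle isozymes *Pfkm*, *Pgam2* and *Eno3* were high in TG 3 alone. *Pfkm* was at 1.68, 3.10, 2.41 and 2.57 FPKM in CTR and 2.02, 2.67 and 10.0 FPKM in TG papillomas. *Pgam2* was at 0.299, 1.34, 0.715 and 0.699 FPKM in CTR and 1.61, 1.25 and 8.59 FPKM in TG papillomas. *Eno3* was at 0.831, 0.877, 1.27 and 0.776 FPKM in CTR and 0.767, 1.48 and 24.3 FPKM in TG papillomas. TG 1 and TG 2 lay within the CTR range for *Pfkm*, and for *Pgam2* TG 2 did, whereas for *Eno3* TG 1 was just below that range and TG 2 just above it. TG 3 over the CTR mean was 4.11-fold for *Pfkm*, 11.2-fold for *Pgam2* and 25.9-fold for *Eno3*. The log2 differences were 0.60 (SE 0.45), 1.41 (SE 0.55) and 1.47 (SE 0.86), and without TG 3 they were -0.03, 0.66 and 0.15. With sample quality weights they were 0.21, 0.79 and 0.64. At low levels these values rest on few reads, such as 4 to 31 implied reads for *Pgam2* outside TG 3. *Pfkm* made up 17.0% of phosphofructokinase FPKM in TG 3 and 3.23% to 7.78% elsewhere, and *Eno3* made up 14.2% of enolase FPKM in TG 3 and 0.393% to 0.925% elsewhere. The 14 muscle markers moved with these genes, with a sum of 849 FPKM in TG 3 against at most 14.1 FPKM elsewhere, and *Pvalb* was listed at 0 in all CTR papillomas. Their part in the values of the 3 genes was not tested.

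**Figure D3:**
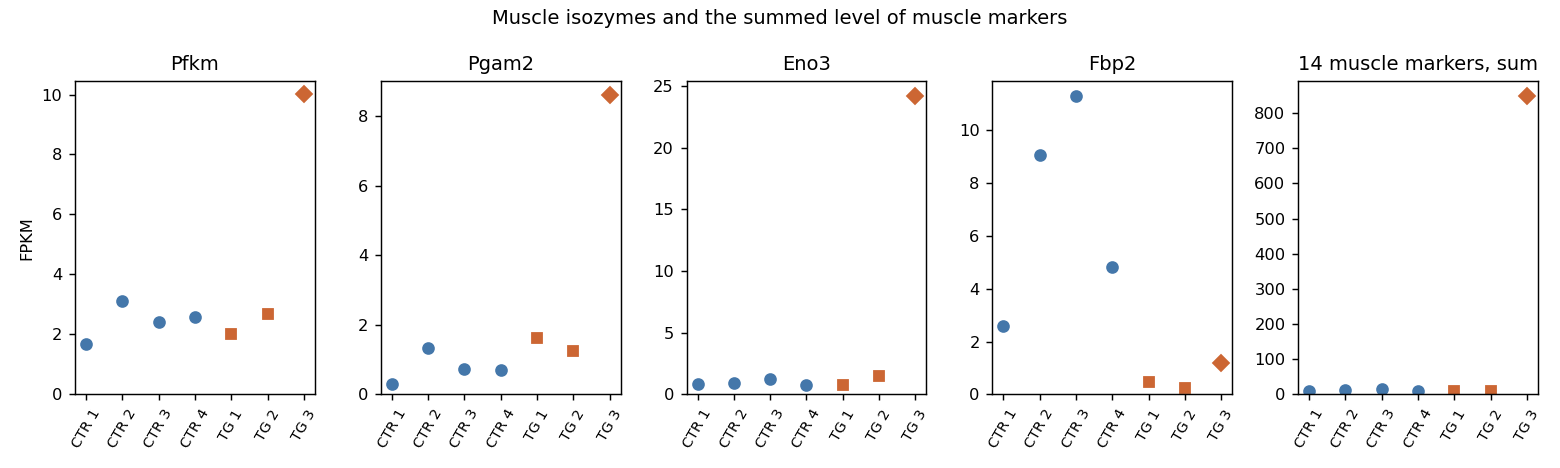
FPKM of the 4 muscle isozymes and the summed FPKM of 14 muscle markers in each papilloma (blue circles CTR, orange squares TG 1 and TG 2, orange diamond TG 3), each panel with its own axis from 0. *Pfkm*, *Pgam2*, *Eno3* and the marker sum peak in TG 3, while *Fbp2* is at 1.19 FPKM there and between 2.59 and 11.3 FPKM in CTR papillomas.

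Lactate dehydrogenase interconverts pyruvate and lactate. *Ldha*, its muscle-type subunit, which is widely expressed, was at 942, 580, 865 and 883 FPKM in CTR and 576, 534 and 735 FPKM in TG papillomas. CTR 1, CTR 3 and CTR 4 lay above all TG papillomas, whereas CTR 2 lay within the TG range. The log2 difference of *Ldha* was -0.40 (SE 0.25). *Ldhb*, the heart-type subunit, was between 5.21 and 9.48 FPKM outside TG 3 and 25.8 FPKM in TG 3, so that its share of the family's FPKM was 3.40% there and at most 1.42% elsewhere.

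The carriers of lactate and pyruvate measured here are the proton-linked transporters *Slc16a1* and *Slc16a3* and the sodium-coupled transporter *Slc5a8*. *Slc5a8*, which takes up lactate, pyruvate and short-chain fatty acids, was at 1.62, 1.79, 1.26 and 1.98 FPKM in CTR and 4.80, 10.8 and 10.6 FPKM in TG papillomas. The TG values did not overlap the CTR values, and TG 1, the lowest of them, was over 2 times CTR 4. The means were 1.66 ± 0.30 FPKM (SD, n = 4) and 8.72 ± 3.4 FPKM (SD, n = 3), with a log2 difference of 2.02 (SE 0.29). Without TG 3 the difference was 1.85. The values rest on 151 to 975 implied reads. *Slc5a8* lies on chromosome 10 from 88885992 to 88929515 (GRCm38), next to the promoter shown above.

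*Slc16a3*, a transporter that exports lactate from glycolytic cells, was chosen for its values after they were seen. It was at 6.68, 8.00, 7.19 and 13.6 FPKM in CTR and 21.8, 9.55 and 19.9 FPKM in TG papillomas. TG 1 and TG 3 were high, TG 2 lay below CTR 4, and the log2 difference was 0.88 (SE 0.33), which fell to 0.25 with sample quality weights. The summed endothelial markers were also high in TG 1 (26.4 FPKM) and TG 3 (32.9 FPKM) and lower in TG 2 (13.1 FPKM), which lay within the CTR range of 9.93 to 16.6 FPKM, and their part in *Slc16a3* was not tested. *Slc16a1* was at 23.5, 18.2, 15.1 and 18.5 FPKM in CTR and 13.6, 17.98 and 16.4 FPKM in TG papillomas, with overlapping groups. Of the summed FPKM of the 3 carriers, *Slc16a1* made up 54.2% to 73.9% in CTR and 33.9% to 47.0% in TG papillomas. *Slc5a8* made up 5.10% to 6.38% in CTR papillomas and 11.9%, 28.1% and 22.6% in TG papillomas.

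**Figure D4:**
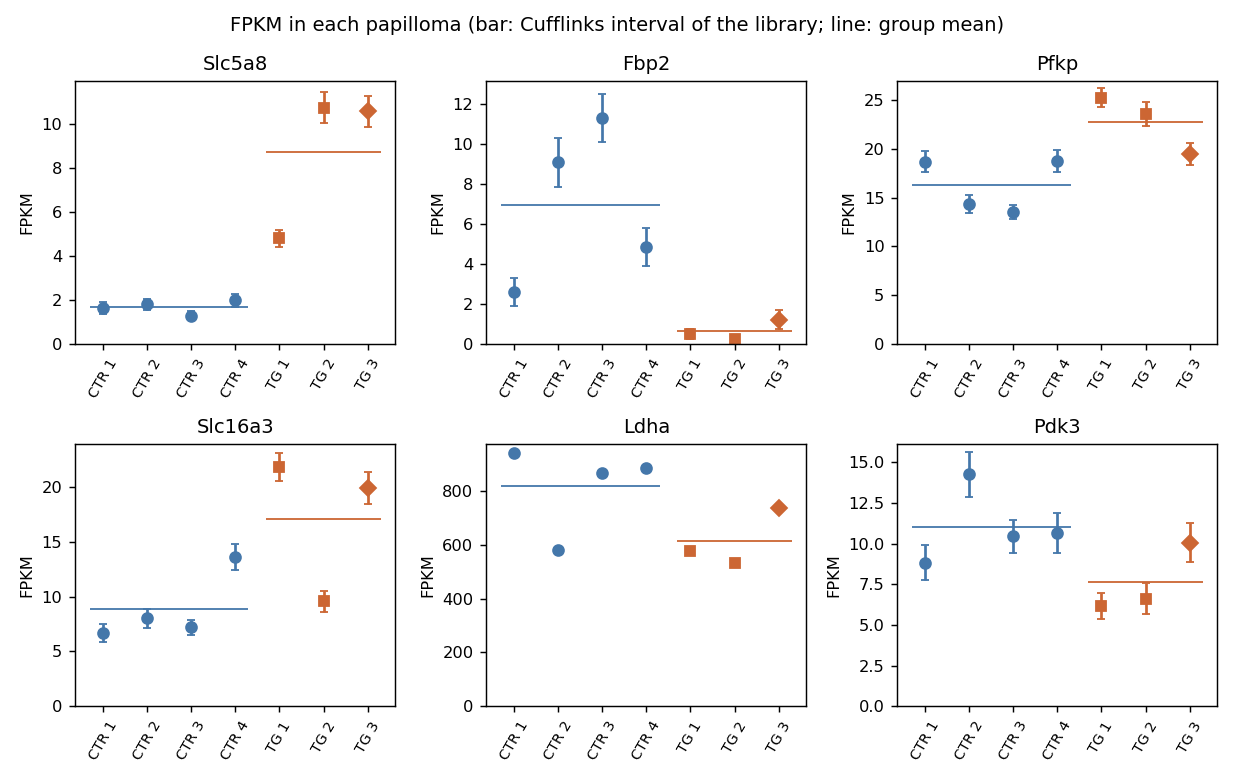
FPKM of *Slc5a8*, *Fbp2*, *Pfkp*, *Slc16a3*, *Ldha* and *Pdk3* in each papilloma on axes from 0, with the Cufflinks confidence interval of the library as a bar and the group mean as a line (CTR blue, TG orange). *Slc5a8* and *Fbp2* show the groups apart by more than the intervals, while for *Slc16a3*, *Ldha* and *Pdk3* 1 papilloma of either group lies among those of the other.

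Pyruvate dehydrogenase kinases phosphorylate and inhibit pyruvate dehydrogenase. *Pdk3* was at 8.84, 14.3, 10.5 and 10.7 FPKM in CTR and 6.16, 6.61 and 10.1 FPKM in TG papillomas. TG 1 and TG 2 were below all CTR papillomas, but TG 3 was above CTR 1, and the log2 difference was -0.52 (SE 0.22). *Pdk1*, a target of hypoxia-inducible factors, was between 7.17 and 10.6 FPKM. *Pdk2* was at most 0.506 FPKM outside TG 3 and 2.03 FPKM in TG 3. *Pdk4*, which rises in fasting, ranged from 0.0817 FPKM in CTR 2 to 1.91 FPKM in CTR 1.

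In gluconeogenesis, fructose 1,6-bisphosphatase reverses the phosphofructokinase step. *Fbp2*, its muscle isozyme, was at 2.59, 9.07, 11.3 and 4.83 FPKM in CTR and 0.469, 0.223 and 1.19 FPKM in TG papillomas. All TG papillomas were below all CTR papillomas, and TG 3 had the highest value among the TG papillomas. The means were 6.95 ± 4.0 FPKM (SD, n = 4) and 0.628 ± 0.50 FPKM (SD, n = 3), with a log2 difference of -2.63 (SE 0.48), or -2.97 without TG 3. TG values rest on 5 to 26 implied reads and CTR values on 57 to 354. *Fbp2* lies on chromosome 13 from 62836885 to 62858370 (GRCm38). It was thus the 1 muscle isozyme that was lower in TG 3 than in any CTR papilloma, at 0.171-fold of the CTR mean. The 14 muscle markers summed to 849 FPKM in TG 3 and to between 9.10 and 14.1 FPKM in CTR papillomas. Their part in the values of *Fbp2* was not tested. *Fbp1*, the liver isozyme, was at most 0.0914 FPKM, or 2 implied reads.

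The other gluconeogenic genes were low. *Pcx*, whose product carboxylates pyruvate, was between 2.25 and 3.67 FPKM outside TG 3 and 6.45 FPKM in TG 3. *Pck2*, the mitochondrial phosphoenolpyruvate carboxykinase, was between 0.772 and 2.32 FPKM. *Pck1*, the cytosolic form, was untested at 0.0426, 0.0387 and 0.402 FPKM in TG papillomas and at most 0.0245 FPKM in CTR papillomas. Its groups did not overlap, but TG 1 and TG 2 rest on fewer than 3 implied reads each. *Pck1* is also expressed by adipocytes. Of the 10 adipocyte markers, 8 were highest in TG 3, such as *Adipoq* at 3.34 FPKM. The exceptions were *Fabp4* and *Pparg*, which in TG 3 lay within their CTR ranges. *Pparg* was at 3.66 FPKM in TG 3 and at 3.51 to 9.09 FPKM in CTR papillomas. The part of adipocytes in *Pck1* was not tested.

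The order of isozymes within a papilloma does not use the contrast of TG and CTR, and it was tested over all 7 papillomas with a 2-sided exact permutation test that flips signs within papillomas, adjusted over 13 pairs. The smallest p that 7 papillomas allow is 0.0156. *Slc2a1* exceeded *Slc2a3*, *Aldoa* exceeded *Aldoc*, *Pgam1* exceeded *Pgam2*, *Eno1* exceeded *Eno2* and *Eno3*, *Ldha* exceeded *Ldhb*, *Pfkl* exceeded *Pfkm* and *Pdk1* exceeded *Pdk2* in 7 of 7 papillomas, each with an adjusted p = 0.0203 by the exact permutation test. *Fbp2* exceeded *Fbp1* and *Pck2* exceeded *Pck1* in 7 of 7 papillomas, with the same adjusted p. With the pseudocount of 0.5 FPKM, the mean log2 ratio of these pairs ranged from 1.86 for *Pck2* over *Pck1* to 7.49 for *Eno1* over *Eno2*. Where a level is near 0, the size of the ratio depends on the pseudocount. As *Pck1* over *Pck2* it was -1.26 with a pseudocount of 1 FPKM and -3.50 with 0.1 FPKM. As *Fbp1* over *Fbp2* it was -1.86 and -4.19. In TG 3 the ratio of *Eno1* over *Eno3* was 2.56, the lowest of the 7, against a mean of 6.03.

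The order was closer for 3 pairs. *Hk1* exceeded *Hk2* in 6 of 7 papillomas (mean log2 ratio 0.60 ± 0.54, SD, exact permutation test, adjusted p = 0.0339), and in CTR 1 their levels were almost equal. *Pfkl* exceeded *Pfkp* in 6 of 7 (0.42 ± 0.37, SD, adjusted p = 0.0339 by the same exact test), with TG 2 the exception. *Slc16a1* exceeded *Slc16a3* in 5 of 7 (0.61 ± 0.84, SD, adjusted p = 0.109 by the same exact test), with TG 1 and TG 3 the exceptions, so that no order was shown for this pair.

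**Figure D5:**
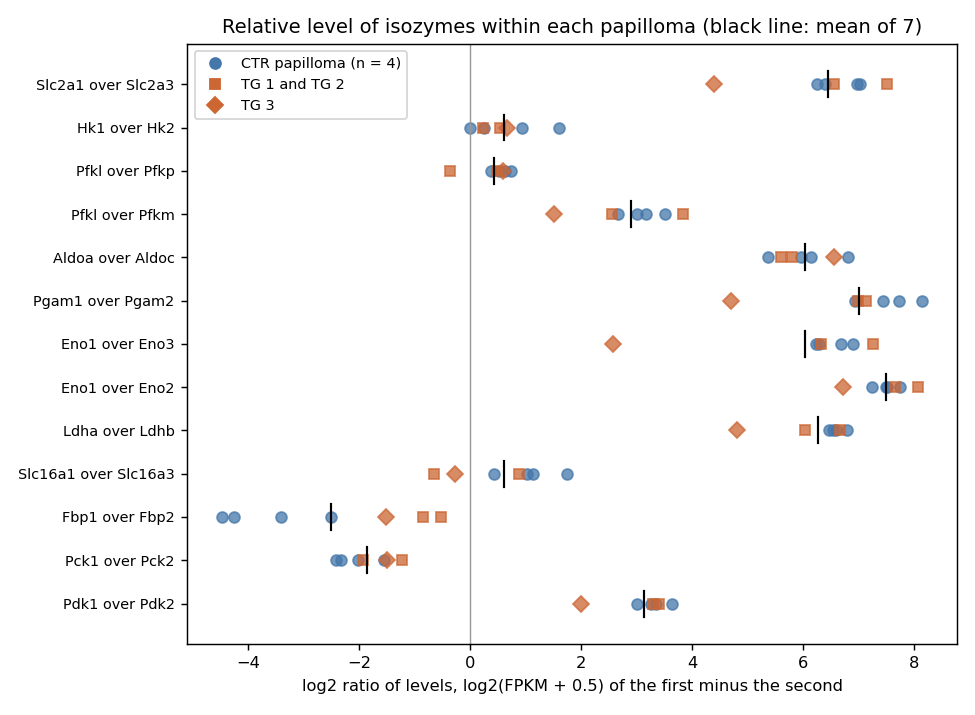
Log2 ratio of the levels of 2 isozymes, log2(FPKM + 0.5) of the first minus the second, in each papilloma for 13 pairs (blue circles CTR, orange squares TG 1 and TG 2, orange diamonds TG 3, black line the mean of 7). Most pairs lie far from 0 in every papilloma, *Hk1* over *Hk2*, *Pfkl* over *Pfkp* and *Slc16a1* over *Slc16a3* come close to 0, and TG 3 has the lowest ratio of *Eno1* over *Eno3*.

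The neighbouring pathways were examined through 6 lists of non-members with 68 tested genes. They were other glycolytic genes (13 tested), lactate and pyruvate handling (9), the pyruvate dehydrogenase complex (8), the pentose phosphate pathway (8), glycogen metabolism (12) and hypoxia genes (18). By limma with Benjamini-Hochberg adjustment, 0 passed as higher and 0 as lower (0% and 0% of all tested genes). At an unadjusted p of 0.05, 1 was higher and 0 lower, against 4.86% and 1.96% of all tested genes. The 1 higher gene, *Gapdhs*, the sperm form of the dehydrogenase, was named after its values were seen. It was at 1.07, 1.15, 1.65 and 1.54 FPKM in CTR and 3.58, 4.23 and 1.502 FPKM in TG papillomas (log2 difference 0.88, SE 0.31, adjusted p = 0.687 from limma), and with sample quality weights it passed as higher. None of the 68 genes separated the groups, whereas of all tested genes 4.93% were higher and 2.23% lower without overlap. Nothing is read from these shares. Median log2 differences ran from -0.04 for the pentose phosphate pathway to 0.25 for glycogen metabolism, against 0.06 for all tested genes. Of the 12 tested glycogen genes, *Pygm*, the muscle phosphorylase, named after its values were seen, reached the filter only through TG 3. The other 11 were also highest in TG 3, as were 41.1% of all tested genes. The median of these 11 was 0.24 with TG 3 and -0.05 without TG 3. The muscle markers were highest there too, and their part was not tested. For the 18 hypoxia genes, which include known targets of hypoxia-inducible factors, the median was 0.17, and 0.15 without TG 3.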

How the data were processed

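The data were RNA-seq libraries of 7 papillomas (4 CTR, 3 TG), with groups and replicate numbers from the sample labels. The authors prepared stranded poly(A)+ libraries, sequenced single reads, aligned them to GRCm38/mm10 with TopHat2 2.0.4 (Bowtie 0.12.7, SAMtools 0.1.16) and estimated abundances per library with Cufflinks 1.3.0, as the methods and the processing notes state. The deposited values are FPKM per gene with a confidence interval and a status. The FPKM scale makes genes comparable per length, but depth is not given, so reads were inferred from interval widths, taken as 2 square roots of the reads, and the intervals cover counting error only. Files were joined by symbol and locus (23746 entries). Symbols at several loci (240) were summed, and 162 with a failed estimate were left out. All per-sample columns were used.

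After a pseudocount of 0.5, FPKM was log2-transformed, and the 12299 genes averaging 0.5 FPKM or more were fitted with limma 3.58.1 (R 4.3.3), with variances moderated along a trend, 2-sided tests and Benjamini-Hochberg adjustment at 0.05. The authors computed differential expression with Cufflinks 1.3.0 from their alignments, which was not repeated here. Their list of genes upregulated in TG papillomas, at a false discovery rate under 0.05, holds *Slc5a8* and *Pygm*. Isozyme pairs were tested with exact sign flips (Python 3.11.15, numpy 2.4.6, scipy 1.17.1, pandas 2.3.3, matplotlib 3.10.9). The scripts were tested on simulated data. Promoters came from RefSeq (GRCm38.p6), 37 of 38 members matching by symbol, and shared stretches from GENCODE M21 transcripts. For *Pfkfb2* the nearest RefSeq start lay 13205 bases from the start in the files. Coordinates are 1-based on GRCm38.

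The members, the gene lists and the tests were chosen with earlier results of these data known. Values in every papilloma are given for members that separated the groups, differed by at least 1 on the log2 scale, encode muscle isozymes or had the highest mean of their role, and for *Gapdh*. *Slc16a3*, *Pkm*, *Gapdhs* and *Pygm* were named outside this rule, after their values were seen. Of other genes, those that separated the groups with a difference of at least 1, which was the case for 0, and *Nanog* were to be named. Alternatives were pseudocounts of 0.1 and 1, no filter or a mean of 2 FPKM, quantile normalization, scaling to the upper quartile, a replicate block, sample quality weights, the highest entry per symbol, each papilloma left out, and only the papillomas of lower depth. The labels and the methods name different RNA extraction kits.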

Additional observations from a re-analysis of the deposited data

Results flagged for a closer look

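In the CTR group, 4 of 37 genes had 1 papilloma whose gap to the nearest other papilloma was above Dixon's 95% critical value. *Slc2a3* was at 0.445 FPKM in CTR 3, above the other CTR papillomas. *Gpi1* was at 61.6 FPKM in CTR 2 and *Pgk1* at 229.7 FPKM in CTR 3, each below the others. *Pck1* was at 0.0245 FPKM in CTR 1, above the others, at about 1 implied read. Chance flags about 1 in 20 such groups, and the group of 3 TG papillomas was not examined in this way.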

How the results depend on the processing

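Of the 33 tested genes, 19 changed the sign of their difference in at least 1 of 17 alternatives, among them *Gapdh*, *Slc2a1*, *Pfkm*, *Ldhb* and *Pdk2* (-0.0037 without TG 3). The other 14 did not, but *Slc2a3* was below the filter in 3 alternatives and its difference without TG 3 was 0.0018. *Slc16a3* went from 0.88 to 0.25 with sample quality weights. With sample quality weights, 49 genes passed the adjusted threshold as higher and 36 as lower, including 1 member in each direction (*Slc5a8* and *Fbp2*) and 1 other pathway gene (*Gapdhs*, higher), and the members' median difference was -0.034. With the papillomas of lower implied depth only, 1 gene (*Nanog*) passed as higher, and 5 members were higher and 4 lower with no overlap. Members without overlap numbered 1 higher and 3 lower after upper-quartile scaling, and 1 and 2 after quantile normalization. Leaving out each papilloma gave 0 to 9 higher and 0 to 8 lower genes, 0 to 1 higher members, and 2 to 5 higher and 1 to 3 lower members without overlap. For these alternatives the share of all tested genes without overlap was not computed. Groups of fewer papillomas separate more easily, and nothing is read from these counts. Without TG 3, 9 genes passed as higher and 8 as lower, of which 0 were members. Without TG 1, 2 genes passed as higher (*Hand1* and *Slc5a8*), and without CTR 3 1 did (*Nanog*). *Pfkl* over *Pfkp* had a log2 ratio of 0.42 (adjusted p = 0.052, exact permutation test) after quantile normalization. With a papilloma left out it ranged from 0.37 to 0.55 and *Hk1* over *Hk2* from 0.43 to 0.70, with adjusted p up to 0.068, where the smallest exact permutation p with 6 papillomas is 0.031. The replicate block gave 0 higher and 0 lower genes and members, and a members' median of 0.15. After group means were subtracted, same-numbered papillomas correlated at -0.186, 0.043 and -0.146. Other pairs of a CTR and a TG papilloma ran from -0.216 to 0.312 (CTR 3 with TG 1). These values gave no sign of pairing by number but are too few to settle it. With the block 4 members were higher and 1 lower at an unadjusted p of 0.05 by limma, and nothing is read from these counts. The 4 to 31 implied reads behind *Pgam2* outside TG 3, and 5 to 26 behind *Fbp2* in TG papillomas, limit their precision.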
